A study of Cricetulus griseus with 6 samples.

Results

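Genes of mitosis and of the G2 phase that precedes it were examined in CHO-T cells after silencing of *Xbp1*. The set was a list of 50 gene symbols for mitotic kinases, cyclins, checkpoint proteins, kinetochore, spindle and cytokinesis proteins, taken by symbol and not by a threshold on any measured value. Of these, 48 were matched by gene symbol among the 27873 entries of the expression files, and all 48 passed the filter on low values. *Bub1b* and *Kif11* were not matched and were not analysed here. *Birc5* stood on 2 rows, of which the more abundant is used below.

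The CHO-T line was made from Chinese hamster ovary cells, which were infected with a retrovirus carrying mouse T-cadherin (*Cdh13*) cDNA and selected with puromycin, and both groups carry this transgene. One group received negative control siRNA (n = 3 libraries) and the other *Xbp1* siRNA (n = 3 libraries), and RNA was taken 48 h after transfection. Stranded mRNA libraries were sequenced, and each deposited file lists FPKM, the number of fragments of a gene scaled to its exon length and to the size of the library, so that levels can be compared between genes. Whether the line is a single clone is not given in the sources used here. The study's methods describe its results in general as coming from independent biological experiments, while the labels do not say which culture each library came from, so p-values measure the spread between these libraries, part of which may be technical.

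A cell enters mitosis when CDK1, bound to cyclin B and relieved of inhibitory phosphates by CDC25 phosphatases, becomes active. The spindle checkpoint then holds back CDC20 and the anaphase-promoting complex until every chromosome is attached, after which securin and cyclins are destroyed, sister chromatids part and the cell divides. Most genes of this programme are transcribed together late in the cell cycle under the MuvB complex with B-MYB (*Mybl2*) and FOXM1, so their summed mRNA is commonly read as a measure of proliferation. XBP1 is the transcription factor made from the mRNA that the endoplasmic reticulum stress sensor IRE1α splices.

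*Xbp1* itself stood at 26.0, 26.2 and 28.4 FPKM with control siRNA and at 2.18, 2.11 and 1.39 FPKM with *Xbp1* siRNA, and the library labels were therefore taken as given. The libraries listed between 15109 and 15545 entries above 0, and the sums of all FPKM values were lower with *Xbp1* siRNA (593487 to 600986) than with control siRNA (646651 to 666267). Read totals are not in the files. Low FPKM values fell on steps, and the commonest ratio of these steps between libraries put depth at 94.0% to 116.2% of that of control replicate 1. Of the 18 cell type markers found, 7 were listed at 0 in all libraries, namely *Col1a1*, *Thy1*, *Krt18*, *Cdh5*, the granulosa receptor gene *Fshr* and the leukocyte genes *Ptprc* and *Cd3e*. Between the groups 4 of the 18 markers were higher without overlap after silencing and 2 lower. Of all 14361 genes tested below, 26.1% were higher and 25.8% lower without overlap. The mesenchymal markers went both ways, with *Vim* between 369.0 and 389.1 FPKM in controls and between 295.8 and 319.3 FPKM after silencing, and *Fn1* between 12.7 and 13.5 FPKM and between 23.2 and 23.4 FPKM. The epithelial gene *Epcam* went from a mean of 1.82 to 4.72 FPKM and *Cdh1* from 0.131 to 0.434 FPKM, the macrophage gene *Cd68* from 5.62 to 7.79 FPKM, and the endothelial gene *Pecam1*, barely detected, from 0.175 to 0.0278 FPKM. The part of these in the results below was not tested.

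After silencing of *Xbp1* most of the mitotic genes did not pass the test, and those that did included both higher and lower ones. Of the 48 genes, 12 fell, 6 rose and 30 did neither, where rose and fell mean a limma p-value adjusted over all 14361 genes tested of under 0.05. The share that fell was 25.0%, against 20.2% of all genes tested, and the share that rose was 12.5%, against 20.2%. Their median log2 fold change was −0.01 and that of all genes tested was 0.01. Scaled by quantile normalization instead, 10 of the 48 fell and 10 rose (20.8% each), against 18.5% and 21.7% of all genes tested in that fit, with a median of 0.0059. The number that rose was also 2 (4.17%) without *Xbp1* siRNA replicate 1, against 16.4% of all genes tested in that fit, and again 2 without *Xbp1* siRNA replicate 3, against 16.0%, while 12 and 11 fell. In bulk RNA, fewer cells in G2 and mitosis and less of a given mRNA in each such cell cannot be told apart.

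Changes were small for most of these genes. In 33 of the 48 the log2 fold change was under 0.2 in size, which is 68.8% of them, against 38.9% of all genes tested and 43.0% of the 11610 with a mean of at least 1 FPKM. Mitotic genes were well expressed, with control levels from 1.92 FPKM for *Cdc25c* to 340.3 FPKM for *Ube2c* and a median at the 76.5th percentile of all genes tested, and the median standard error of their log2 fold change was 0.05, against 0.09 for all genes tested. Among the 30 genes that neither rose nor fell, the 95% interval lay within 1.2-fold of no change in either direction for 23, and the other 7 were *Spc24*, *Plk1*, *Ncapg*, *Pttg1*, *Aurkb*, *Ttk* and *Cdc25c*. Summed over the 48 genes, the level was 2336, 2364 and 2356 FPKM with control siRNA and 2166, 2181 and 2172 FPKM with *Xbp1* siRNA. The sum over all entries was also lower with *Xbp1* siRNA. As a share of it, the 48 genes made up 0.3505%, 0.361% and 0.3644% with control siRNA. With *Xbp1* siRNA the share was 0.3627%, 0.3675% and 0.3614%, so the shares overlapped.

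**Figure D1:**
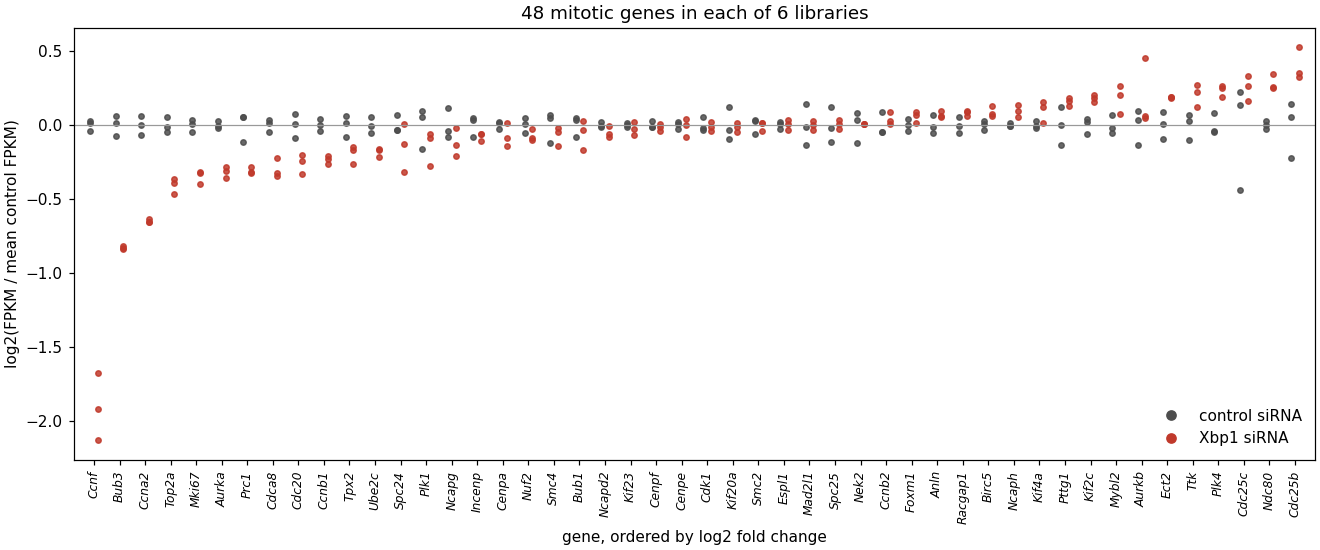
Each of the 48 mitotic genes in each of the 6 libraries, as log2 of its FPKM over the mean control FPKM (vertical axis), ordered along the horizontal axis by log2 fold change. Grey points are the 3 libraries with control siRNA and red points the 3 with *Xbp1* siRNA. *Ccnf*, *Bub3* and *Ccna2* stand apart at the left, and most other genes have red and grey points within 0.5 of each other.

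Values of the control and silenced libraries did not overlap for 12 genes that were lower and 11 that were higher with *Xbp1* siRNA, which is 25.0% and 22.9% of the 48, against 25.8% and 26.1% of all genes tested. A second limit, that the level at least double or fall below 0.5 of control (a log2 fold change of 1 or more in size), was set beside the adjusted p. It left 1 mitotic gene called lower and 0 called higher. Of all genes tested, 2.5% were called lower and 2.69% higher by both limits. With a pseudocount of 1 these were 205 genes lower and 114 higher in place of 359 and 386, and still 1 and 0 of the mitotic genes. At an unadjusted p under 0.05 in limma, 22 of the 48 genes passed, or 45.8%, against 48.9% of all genes tested.

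The gene called by both limits was *Ccnf*, which encodes cyclin F, an F-box protein that binds no CDK and selects substrates for the SCF ubiquitin ligase. It stood at 22.9, 23.2 and 22.1 FPKM with control siRNA and at 7.13, 5.20 and 6.04 FPKM with *Xbp1* siRNA. Every library with *Xbp1* siRNA was far below the lowest control, and their mean was 26.9% of the control mean. The log2 fold change was −1.89 (SE 0.11, adjusted p = 1.91e-05 in limma), and it lay between −2.002 and −1.746 over all alternatives run. By the size of this change *Ccnf* ranked 43rd of the 359 genes called lower.

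**Figure D2:**
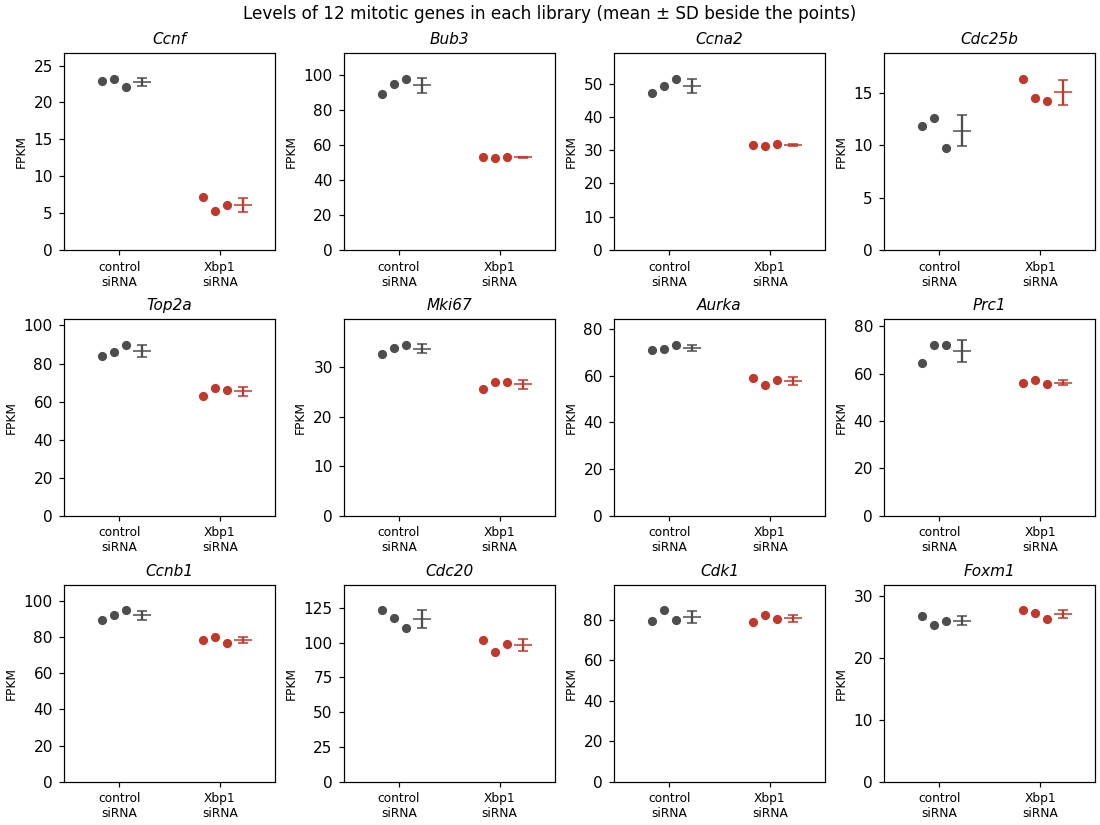
FPKM (vertical axes, each starting at 0) of 12 mitotic genes in each library, with control siRNA in grey and *Xbp1* siRNA in red (n = 3 each), and the mean ± SD beside the points. The groups are apart for the first 10 genes and overlap for *Cdk1* and *Foxm1*.

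*Bub3* came next by size. Its product is the adaptor that docks BUB1 and BUBR1 on unattached kinetochores and is part of the mitotic checkpoint complex. *Bub3* stood at 89.1, 94.9 and 97.8 FPKM with control siRNA and at 52.9, 52.6 and 53.3 FPKM with *Xbp1* siRNA. The 3 silenced libraries were within 1 FPKM of each other and all were below the lowest control, and the log2 fold change was −0.83 (SE 0.04, adjusted p = 1.03e-05 in limma). The other 3 checkpoint genes did not pass. *Bub1*, the kinetochore kinase, stood at 17.0, 18.6 and 18.4 FPKM with control siRNA and 16.0, 18.3 and 17.6 FPKM with *Xbp1* siRNA, with overlapping groups and a 95% interval of the log2 difference from −0.22 to 0.11. *Mad2l1*, whose product binds and inhibits CDC20, had 53.3 ± 5.15 and 53.2 ± 1.07 FPKM (mean ± SD of 3 libraries each, control siRNA first here and below). *Ttk*, the gene of the MPS1 kinase that starts checkpoint signalling, was at 9.57 ± 0.580 and 11.1 ± 0.560 FPKM (mean ± SD of 3 libraries each), and its groups did not overlap, but the log2 fold change of 0.21 did not pass (limma adjusted p = 0.0652, or 0.0487 with a filter at 1 FPKM).

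Among the genes of the cyclins and CDK1, the mRNAs of cyclin A2 and cyclin B1 fell while that of CDK1 neither rose nor fell. *Ccna2*, the cyclin of S phase and early mitosis, stood at 47.2, 49.3 and 51.5 FPKM with control siRNA and at 31.4, 31.3 and 31.7 FPKM with *Xbp1* siRNA. The groups were well apart, with a log2 fold change of −0.64 (SE 0.04, adjusted p = 3.71e-05 in limma). In RefSeq's table of hamster genes *Ccna2* overlaps *Exosc9*, a subunit gene of the RNA-degrading exosome (not the vesicle), looked at for that reason. *Exosc9* had a log2 fold change of −0.33, and how reads of the overlap were assigned was not tested. *Ccnb1*, the main mitotic cyclin, stood at 89.7, 92.0 and 94.7 FPKM with control siRNA and at 78.5, 79.9 and 76.6 FPKM with *Xbp1* siRNA. This decrease to 85.0% of the control mean was also beyond the spread of the libraries (log2 fold change −0.23, SE 0.04, adjusted p = 0.00171 in limma).

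*Cdk1* did not pass, and its groups overlapped. It stood at 79.6, 84.7 and 80.2 FPKM with control siRNA and at 79.1, 82.5 and 80.7 FPKM with *Xbp1* siRNA, and the 95% interval of its log2 difference ran from −0.10 to 0.08. *Ccnb2*, the second B-type cyclin gene, had 39.5 ± 2.22 and 40.6 ± 1.17 FPKM (mean ± SD of 3 libraries each), with overlapping groups. Of the phosphatases that activate CDK1, *Cdc25b* stood at 11.8, 12.6 and 9.77 FPKM with control siRNA and at 16.4, 14.5 and 14.3 FPKM with *Xbp1* siRNA. It had the largest increase of the 48 genes, with a log2 fold change of 0.40 (SE 0.11, adjusted p = 0.0192 in limma), but without *Xbp1* siRNA replicate 1 this was 0.34 (adjusted p = 0.0653, limma). *Cdc25c*, the lowest gene of the set, had 1.92 ± 0.443 and 2.29 ± 0.133 FPKM (mean ± SD of 3 libraries each), with a wide 95% interval of the log2 difference from −0.18 to 0.72 (SE 0.19). *Cdc25a*, another CDC25 phosphatase gene, is not in the set and was named after its value was seen. It fell, with 33.0 ± 1.89 and 23.5 ± 1.01 FPKM (mean ± SD of 3 libraries each) and no overlap. Limma gave it a log2 difference of −0.48 at an adjusted p of 5.52e-04.

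The transcription factors of the programme were at or slightly above control. *Foxm1* stood at 26.8, 25.3 and 26.0 FPKM with control siRNA and at 27.7, 27.2 and 26.3 FPKM with *Xbp1* siRNA, overlapping groups with a 95% interval of −0.05 to 0.16. *Mybl2* rose and was at 53.7 ± 2.41 and 61.0 ± 4.03 FPKM (mean ± SD of 3 libraries each), with limma giving a log2 difference of 0.18 at an adjusted p of 0.0410. That call was lost on leaving out any 1 of 4 libraries, with an adjusted p of 0.106 without control replicate 2, 0.117 without control replicate 3, 0.121 without *Xbp1* siRNA replicate 1 and 0.113 without *Xbp1* siRNA replicate 3 (limma). It was also lost with no filter on low values (0.0504) and with eBayes without trend (0.0980).

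Kinases of centrosomes and of mitotic entry went different ways. *Aurka*, the kinase of centrosome maturation and spindle poles, stood at 70.8, 71.5 and 73.3 FPKM with control siRNA and at 59.2, 56.0 and 57.9 FPKM with *Xbp1* siRNA. All silenced libraries were below all controls (log2 fold change −0.32, SE 0.04, adjusted p = 4.64e-04 in limma). *Tpx2*, whose product activates Aurora A on spindle microtubules, fell, with a log2 difference of −0.19 in limma at an adjusted p of 0.0253, but its adjusted p was 0.0646 without control replicate 1, 0.0791 without control replicate 3, 0.0530 without *Xbp1* siRNA replicate 2 and 0.0861 without *Xbp1* siRNA replicate 3. It was 0.0623 after quantile normalization and 0.0620 with eBayes without trend. *Plk1*, a kinase needed from mitotic entry to cytokinesis, stood at 29.2, 25.2 and 30.1 FPKM with control siRNA and at 26.5, 27.0 and 23.2 FPKM with *Xbp1* siRNA, and the overlapping groups had a 95% interval of −0.34 to 0.07. *Plk4*, the kinase that starts centriole duplication, rose and was at 18.5 ± 0.947 and 21.8 ± 0.605 FPKM (mean ± SD of 3 libraries each), with limma giving a log2 difference of 0.23 at an adjusted p of 0.0133, or 0.0508 without *Xbp1* siRNA replicate 3. *Nek2*, the centrosome separation kinase, had 51.7 ± 3.79 and 51.9 ± 0.107 FPKM (mean ± SD of 3 libraries each).

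**Figure D3:**
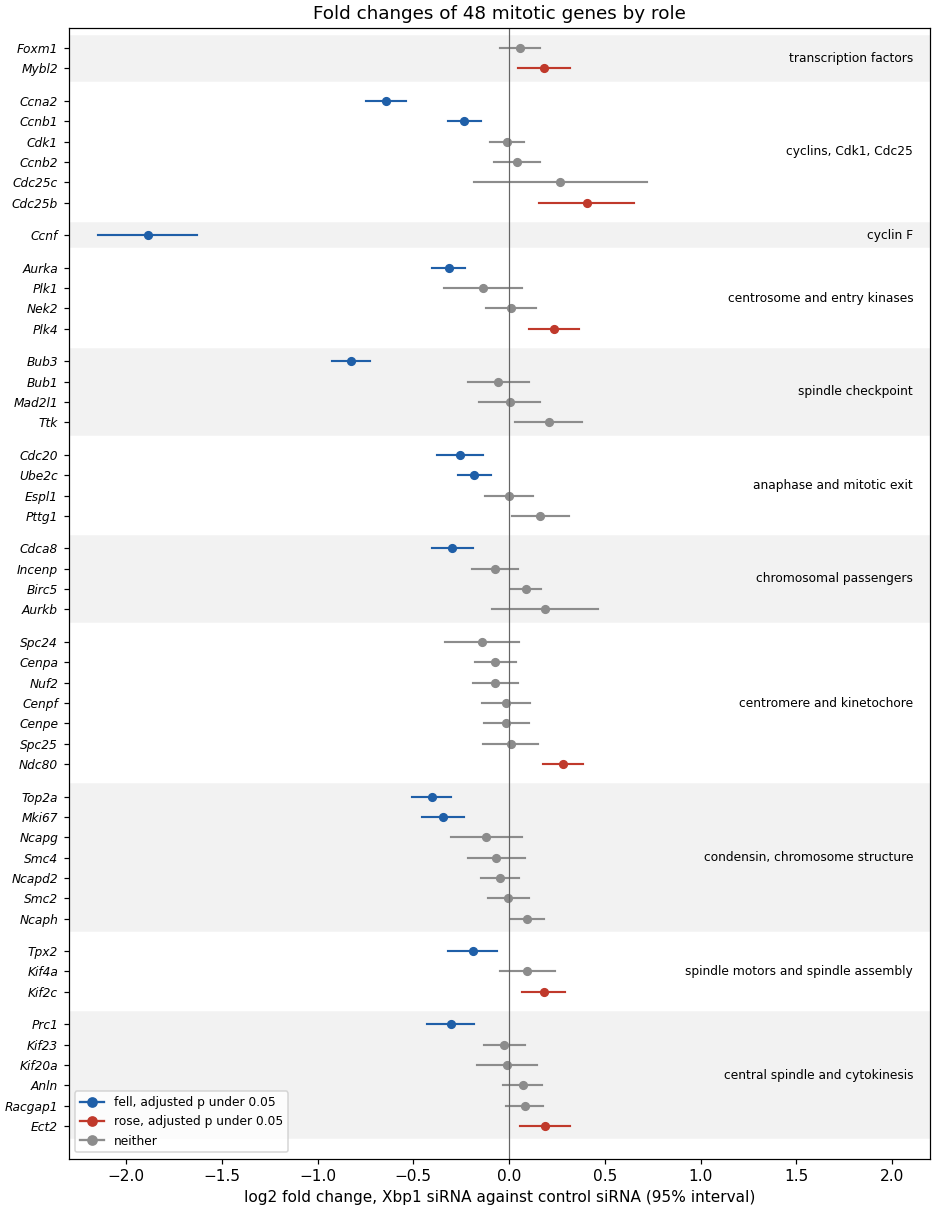
Log2 fold change of the 48 genes (points) with 95% intervals (lines), on the horizontal axis, grouped by role with alternate shading. Blue genes fell and red genes rose at an adjusted p under 0.05, and grey genes did neither, so that most roles hold genes of more than 1 colour.

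The anaphase-promoting complex is switched on in mitosis by CDC20 and works with the ubiquitin-conjugating enzyme UBE2C. *Cdc20* stood at 123.1, 117.7 and 110.2 FPKM with control siRNA and at 101.7, 93.2 and 99.0 FPKM with *Xbp1* siRNA, which did not overlap and gave a log2 fold change of −0.26 (SE 0.05, adjusted p = 0.00631 in limma). *Ube2c*, the most abundant of the 48 mRNAs, fell and was at 340.3 ± 12.8 and 300.0 ± 6.06 FPKM (mean ± SD of 3 libraries each), with limma giving a log2 difference of −0.18 at an adjusted p of 0.00591, and of −0.04 at 0.427 after quantile normalization. The genes of securin, which the complex marks for destruction, and of separase, which is thereby freed, did not pass in either direction. *Pttg1*, the gene of securin, had 68.2 ± 5.95 and 76.2 ± 1.42 FPKM (mean ± SD of 3 libraries each), groups that did not overlap, and limma gave a log2 difference of 0.16 at an adjusted p of 0.0748, or 0.0195 without control replicate 2. *Espl1*, the gene of separase, had 13.8 ± 0.222 and 13.8 ± 0.327 FPKM (mean ± SD of 3 libraries each).

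The chromosomal passenger complex joins the Aurora B kinase to INCENP, survivin and borealin at centromeres. Borealin's gene, *Cdca8*, fell and was at 63.1 ± 1.86 and 51.4 ± 2.27 FPKM (mean ± SD of 3 libraries each), with limma giving a log2 difference of −0.30 at an adjusted p of 0.00165. The other 3 genes did not pass. *Aurkb* stood at 15.7, 16.3 and 13.9 FPKM with control siRNA and at 15.8, 20.9 and 15.9 FPKM with *Xbp1* siRNA, where *Xbp1* siRNA replicate 2 was above all other libraries and the rest overlapped (95% interval −0.09 to 0.47). *Birc5*, the survivin gene, had 152.9 ± 3.23 and 162.4 ± 4.04 FPKM (mean ± SD of 3 libraries each), groups that did not overlap (log2 fold change 0.09, adjusted p = 0.0756 in limma). Its second, weak row ranged from 0.695 to 6.35 FPKM with no separation of the groups. *Incenp* had a log2 fold change of −0.07.

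Of 7 kinetochore and centromere genes, 1 rose and 6 neither rose nor fell. The NDC80 complex, which holds microtubules at the kinetochore, has subunits encoded by *Ndc80*, *Nuf2*, *Spc24* and *Spc25*. *Ndc80* stood at 30.7, 30.1 and 29.5 FPKM with control siRNA and at 35.8, 38.2 and 35.9 FPKM with *Xbp1* siRNA. Every silenced library was above every control (log2 fold change 0.28, SE 0.04, adjusted p = 0.00190 in limma). Its partner *Nuf2* had 23.9 ± 0.855 and 22.7 ± 0.616 FPKM (mean ± SD of 3 libraries each), *Spc24* had a log2 fold change of −0.14 (95% interval −0.33 to 0.05) and *Spc25* one of 0.01. The gene of the centromeric histone, *Cenpa*, was at −0.07 on the same scale, and those of the large kinetochore proteins *Cenpe* and *Cenpf* were at −0.01 and −0.02.

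Genes for the make-up of mitotic chromosomes held 2 that fell and 5 that did not pass. *Top2a*, the topoisomerase that untangles sister chromatids, stood at 83.78, 85.9 and 89.99 FPKM with control siRNA and at 62.8, 67.3 and 66.0 FPKM with *Xbp1* siRNA. This was 75.5% of the control mean, with no overlap (log2 fold change −0.40, SE 0.04, adjusted p = 3.05e-04 in limma). *Mki67*, the gene of the Ki-67 protein that coats mitotic chromosomes and is stained as a proliferation marker, stood at 32.6, 33.9 and 34.5 FPKM with control siRNA and at 25.5, 26.9 and 27.0 FPKM with *Xbp1* siRNA. All silenced libraries were again below all controls (log2 fold change −0.35, SE 0.05, adjusted p = 8.51e-04 in limma). The 5 condensin genes of the set, whose products compact chromosomes, did not pass. Their log2 fold changes ranged only from −0.12 for *Ncapg* through −0.07 for *Smc4*, −0.05 for *Ncapd2* and −0.0048 for *Smc2* to 0.09 for *Ncaph*. Of these, *Ncaph* was the gene whose groups did not overlap, at 50.6 ± 0.397 and 54.0 ± 1.43 FPKM (mean ± SD of 3 libraries each, limma adjusted p = 0.0769). Condensin genes outside the set, named after their values were seen, went both ways. *Ncapg2* rose (log2 fold change 0.22, adjusted p = 0.00778 in limma) and *Ncaph2* fell (−0.22, adjusted p = 0.0117 in limma), both without overlap. *Ncapd3*, at −0.12, did not pass.

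Spindle and cytokinesis genes held 2 that fell and 2 that rose. *Prc1*, the microtubule bundler of the central spindle, stood at 64.5, 72.3 and 72.2 FPKM with control siRNA and at 55.9, 57.3 and 55.6 FPKM with *Xbp1* siRNA. All silenced libraries lay below the lowest control (log2 fold change −0.31, SE 0.05, adjusted p = 0.00276 in limma). The other gene that fell was *Tpx2*, described above. *Ect2*, the exchange factor that activates RhoA at the division plane, rose and was at 23.6 ± 1.49 and 26.9 ± 0.0824 FPKM (mean ± SD of 3 libraries each), with limma giving a log2 difference of 0.19 at an adjusted p of 0.0300. *Kif2c*, a kinesin that depolymerises microtubules at centromeres, rose and was at 24.6 ± 0.911 and 27.8 ± 0.476 FPKM (mean ± SD of 3 libraries each), with limma giving a log2 difference of 0.18 at an adjusted p of 0.0188. Both increases were near the limit. The adjusted p of *Ect2* was 0.0643 without control replicate 1, 0.0700 without control replicate 2 and between 0.0712 and 0.0818 without any 1 of the *Xbp1* siRNA replicates, and that of *Kif2c* was 0.0574 without control replicate 3, 0.0519 without *Xbp1* siRNA replicate 1 and 0.0674 without *Xbp1* siRNA replicate 3 (limma). With eBayes without trend that of *Ect2* was 0.0585.

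Partners of these proteins at the central spindle did not pass. The centralspindlin genes *Kif23* and *Racgap1* had log2 fold changes of −0.03 and 0.08. *Kif20a*, a kinesin of the midzone, was at −0.01, *Anln*, which links the contractile ring to the membrane, at 0.07, and the chromokinesin gene *Kif4a* at 0.10 on the same scale. *Racgap1* was the 1 of these whose groups did not overlap. For 12 of the 48 genes the RefSeq table places another entry on the same stretch of genome, and for 6 of them, *Foxm1*, *Ccna2*, *Aurka*, *Cenpe*, *Kif20a* and *Ect2*, it is a protein-coding gene. The gene over *Kif20a* is *Cdc23*, an anaphase-promoting complex subunit looked at for that reason, with a log2 fold change of −0.54. The libraries were stranded, but whether strand was used in counting is not given in the sources used here.

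**Figure D4:**
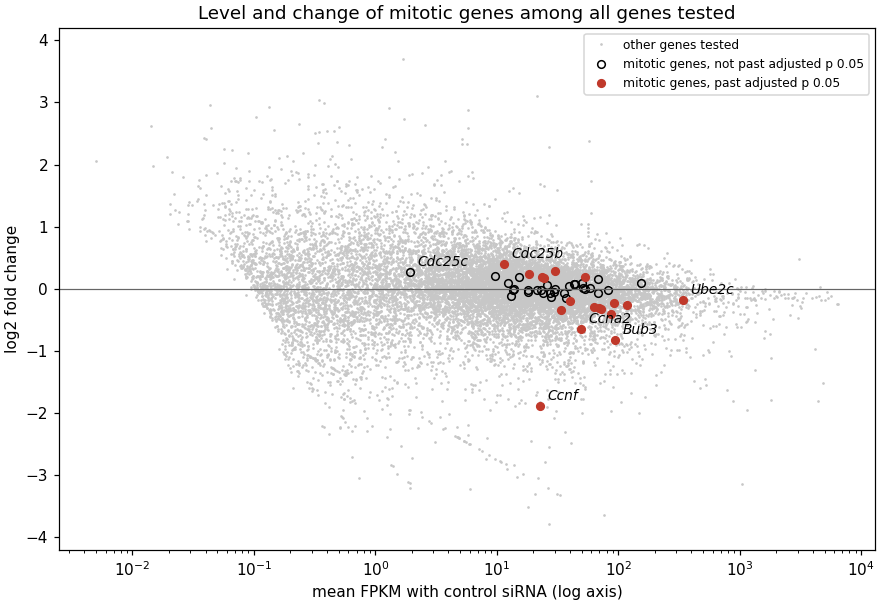
Mean FPKM with control siRNA (horizontal, log axis) against log2 fold change (vertical) for all genes tested with a control mean above 0 (light grey) and for the 48 mitotic genes, filled red where the adjusted p was under 0.05 and open where it was not. The mitotic genes lie in the well expressed range, and *Ccnf* is the 1 mitotic gene below −1.

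Other genes of the same machinery, in 7 lists of 125 genes that share none with the set above, were also examined. Of 121 that were tested, 22 rose and 24 fell, or 18.2% and 19.8%, near the 20.2% of all genes tested in either direction, with a median log2 fold change of 0.00. Of 17 subunits and regulators of the anaphase-promoting complex, 6 rose and 5 fell (35.3% and 29.4%), and of 13 cohesin genes 3 rose and 2 fell (23.1% and 15.4%). Of 27 other kinetochore and centromere genes, 4 rose and 1 fell (14.8% and 3.70%), and of 28 other spindle and cytokinesis genes 4 rose and 2 fell (14.3% and 7.14%). Of 19 further G2 and mitosis genes 5 rose and 6 fell (26.3% and 31.6%). The largest increase among them was in *Iqgap3*, a scaffold of the cell cortex chosen after its value was seen (log2 fold change 0.79). The largest decrease was in *Cdc25a*, given above (log2 fold change −0.48).

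Genes that restrain mitotic entry or serve its phosphatase switch had the largest share lower of the 7 lists. Of 8 tested, 5 fell (62.5%, against 20.2% of all genes tested), 0 rose and 3 did neither, with a median log2 fold change of −0.25. These are few genes, and the difference between this list and the others was not tested. *Cdkn1a*, the p21 inhibitor of cyclin-dependent kinases, was the 1 gene of the 7 lists past both limits. It stood at 65.3, 60.9 and 63.4 FPKM with control siRNA and at 28.4, 26.4 and 28.8 FPKM after silencing, or 44.1% of the control mean (log2 fold change −1.18, SE 0.05, adjusted p = 4.75e-06 in limma). The other 4 that fell were *Wee1*, the kinase that holds CDK1 inactive, at −0.47, *Ensa*, the phosphatase inhibitor switched on in mitosis, at −0.39, its kinase *Mastl* at −0.26 and *Cdkn1b*, the p27 inhibitor, at −0.24, and these 4 were named after their values were seen. Of 9 MuvB and DREAM genes, 3 fell (33.3%) and 0 rose, among them the DNA-binding subunit gene *Lin54*, also named after its value was seen, with a log2 fold change of −0.56.

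DNA replication and G1-S genes, which are expressed earlier in the cycle, are set beside the mitotic genes as counts only. Of 40 tested, 14 fell and 6 rose, or 35.0% and 15.0%, with a median log2 fold change of −0.09, and 1 was called lower by both limits. The mitotic set had 25.0% and 12.5% and also 1 called lower. The difference between these lists was not tested.

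**Figure D5:**
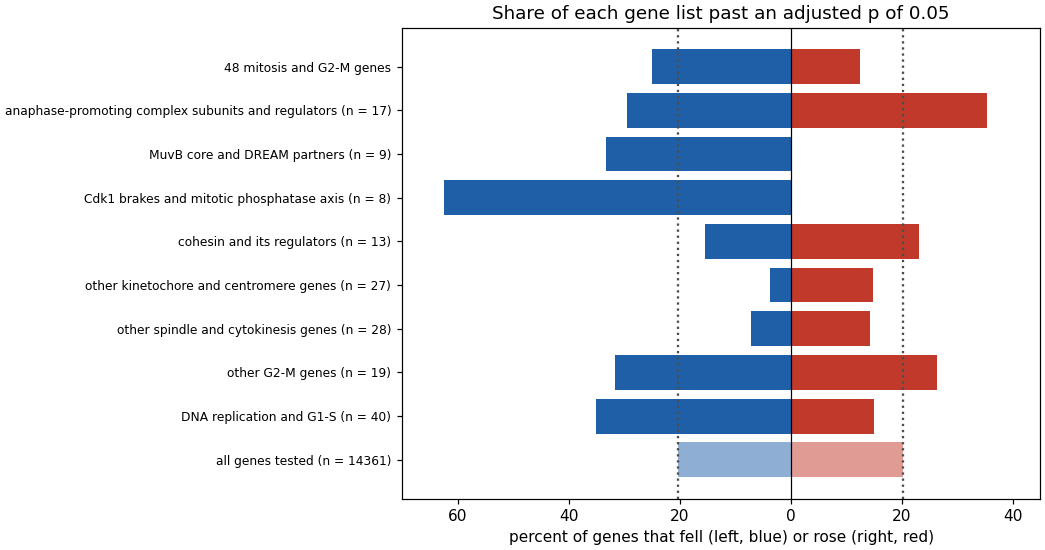
Percent of the genes in each list that fell (blue, left) or rose (red, right) at an adjusted p under 0.05, with the number tested, and the same for all genes tested (pale bars, dotted lines at 20.2% on both sides). Bars of lists with few genes rest on few calls, such as 5 of 8 for the list of CDK1 brakes and the mitotic phosphatase axis.

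The members that passed are spread over the roles. The 12 that fell were *Ccnf*, *Bub3*, *Ccna2*, *Top2a*, *Mki67*, *Aurka*, *Prc1*, *Cdca8*, *Cdc20*, *Ccnb1*, *Tpx2* and *Ube2c*, and 10 of them did so under every alternative, with *Tpx2* and *Ube2c* as the exceptions. The 6 that rose were *Cdc25b*, *Ndc80*, *Plk4*, *Ect2*, *Mybl2* and *Kif2c*, of which *Ndc80* did so under every alternative. The 2 that still rose were *Ndc80* and *Plk4* without *Xbp1* siRNA replicate 1, and *Ndc80* and *Cdc25b* without *Xbp1* siRNA replicate 3. Quantile normalization added *Birc5*, *Ncaph*, *Pttg1* and *Racgap1* to those that rose, with log2 differences of 0.20, 0.15, 0.22 and 0.14.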

How the data were processed

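The authors deposited 1 file of FPKM per library, for 3 libraries with control siRNA and 3 with *Xbp1* siRNA. The submitters' processing notes name HISAT2 2.1.0 and Cuffdiff 2.2.1. The genome build and annotation are not given in the sources used here, so no coordinates are printed. Names and overlaps came from a RefSeq table, which held all 48 matched genes.

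FPKM are not counts, so the DESeq2 test of the study's methods was not used, and counting error cannot be given. log2(FPKM + 0.1) was fitted with limma 3.58.1 in R 4.3.3 (eBayes with trend) over the 14361 entries with a mean of at least 0.1 FPKM, with Benjamini-Hochberg adjustment over all of them. Fold changes on this scale understate those of weak genes. The fit was also run on simulated data with noise drawn independently for each gene and far fewer changed genes than passed here. That setting differs from these data, so its outcome is not used as support.

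Members and gene lists were chosen with earlier results of these data known. Every member was grouped by role. Given in full were members past both limits, those with the largest changes and no overlap up to 8, and 10 core genes, and *Ndc80* was added after its values were seen. In each role the highest and lowest were named, and in the other lists genes past both limits. Alternatives were other pseudocounts, filters and scalings, no trend, a replicate block and leaving out each library. Same-numbered libraries were not taken as pairs, since their deviations correlated across genes with r of −0.029, −0.027 and −0.012. A planned motif search was not run, as no promoter sequence was used here.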

Additional observations from a re-analysis of the deposited data

How the results depend on the processing

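Under 14 alternatives, 672 log2 fold changes of the 48 genes were recomputed. None of the 18 genes that rose or fell changed direction. In all, 24 values were weaker and 6 stronger by the adjusted p, and 21 values of 9 genes changed sign, each with a log2 fold change of at most 0.03 in size as reported. With quantile normalization these were *Cdk1* at 0.0447, *Cenpe* at 0.0129, *Kif23* at 0.0107 and *Smc2* at 0.0373, and with median-ratio scaling *Espl1* at −0.000358. Without 1 library the value of 8 genes crossed 0, with a range from −0.0295 to 0.0156 for *Cdk1*, from −0.0406 to 0.0186 for *Cenpe*, from −0.0149 to 0.019 for *Espl1*, from −0.0588 to 0.0493 for *Kif20a*, from −0.0647 to 0.0737 for *Mad2l1*, from −0.0502 to 0.0529 for *Nek2*, from −0.0347 to 0.014 for *Smc2* and from −0.0472 to 0.0716 for *Spc25*. The median log2 fold change of the 48 genes was 0.0059 after quantile normalization and from −0.032 to 0.00090 without 1 library. The number of these genes that rose was 10 after quantile normalization and from 2 to 5 without 1 library. With the replicate block, 6 rose and 12 fell, as reported. Over all genes, both limits gave 114 higher and 205 lower with a pseudocount of 1, which shrinks the fold changes of weak genes, and 242 higher with a filter at 1 FPKM, which tests fewer genes. The other counts stayed within 1.5 times those reported. Changes under about 0.1 on the log2 scale are near the standard errors of single genes, and read depth could not be used to set a floor.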
